A study of Mus musculus with 4 samples.

Results

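Transcripts of 30 genes of glycolysis and of the response to low oxygen were followed in the colons of wild-type (WT) mice and of mice lacking STAP-2, an adaptor protein of cytokine and growth factor signalling. The 30 members were taken by name: 17 take glucose up, break it down, or handle its lactate and pyruvate, and 13 sense oxygen or are known targets of the hypoxia-inducible factor HIF. They were found through the RefSeq accession of each array probe, among 20828 genes named on the array and 15548 genes tested. Where a gene had several probes, the probe with the highest mean level stood for it. All 30 members were found, passed the filter on dim probes and lay well above background on all 4 arrays. Ero1l carries the symbol Ero1a in the RefSeq table.

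All mice were C57BL/6J, 14 weeks old, and had been given 1.75% dextran sulfate sodium (DSS) in their drinking water. DSS, a sulfated polymer, damages the lining of the colon and so brings on acute colitis. One label field gives 3 days of DSS and another gives 7 days, so the length of treatment is not settled here. RNA of the entire colon was pooled from 3 mice per sample, with 2 pools of WT mice and 2 pools of STAP-2-/- mice, each on its own array. Every group had received DSS, so no value without colitis is given. The titles call the pools biological replicates and number them 1 and 2 in each genotype, and p-values for genotype measure the spread between these pools. The labels do not say whether pools of the same number share a day, a cage or a preparation.

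Glycolysis splits glucose into pyruvate in the cytosol, and lactate dehydrogenase turns pyruvate into lactate, so the pathway can yield ATP without oxygen. When oxygen is plentiful, the prolyl hydroxylases encoded by Egln1 and Egln3 mark HIF-1 alpha for degradation. When oxygen falls, HIF-1 alpha persists, pairs with its partner ARNT and binds promoters of glycolytic and other target genes. The colonic epithelium lies next to a nearly oxygen-free lumen, and HIF target genes are known to be active in it and to rise where inflamed mucosa loses oxygen.

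A level here is log2 of the processed signal minus the 75th percentile of its array, so a level of 0 is that of a gene at the 75th percentile, and levels of different genes are not set against each other. The 75th percentile of the signal was 2134 to 2348 on the 4 arrays, 68.4% to 70.5% of spots lay well above background, and 0 spots were saturated. The targeted gene followed its labels: Stap2 stood at 2.92 and 2.98 on the WT arrays, and at -6.63 and -7.72 on the STAP-2-/- arrays, where it was not well above background. All 12 tested markers of colon epithelium, of 13 listed, lay well above background on every array. The arrays shared 1 slide and 1 scan. The pools numbered 1 lay at positions 1 (WT) and 2 (STAP-2-/-) and those numbered 2 at positions 3 and 4, so pool number and position on the slide cannot be told apart.

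STAP-2-/- and WT colons were compared first, which is the comparison the study was designed for. No member was called for genotype by limma with Benjamini-Hochberg adjustment over 15548 genes. An adjusted p of 0.05 was passed by 0 of 30 members and 0 genes of the array (0%). An unadjusted p below 0.05 was seen for 325 genes (2.09%), and for 1 of 30 members, Ankrd37. The targeted gene Stap2 was not called either, at a difference of -10.1 (limma adjusted p = 0.316), so this test can miss large differences. The median STAP-2-/- minus WT difference of the members was -0.028 on the log2 scale, beside -0.0068 over all genes tested, and 16 of 30 members were lower in STAP-2-/- colons. A log2 difference beyond 0.5 in either direction was seen in 2 of 30 members and in 5.48% of all genes. In such bulk samples, fewer cells of a type and less RNA per cell cannot be told apart.

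The levels of the STAP-2-/- pools did not overlap those of the WT pools for 10 of 30 members, and for 24.9% of all genes tested. In 7 members both STAP-2-/- pools were lower, beside 13.3% of all genes, namely Slc2a1, Hk1, Hk2, Pfkfb3, Gapdh, Slc16a3 and Car9. In 3 members both STAP-2-/- pools were higher, beside 11.5% of all genes, namely Pfkl, Tpi1 and Ankrd37. A further Hk1 probe gave a difference above 0, at 0.069, and the mean over the Hk1 probes was -0.042. Gapdh and Tpi1, enzymes of mid-glycolysis, are in these sets with differences of only -0.034 and 0.066. The Gapdh difference turned above 0 with quantile scaling and with the mean over its probes.

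**Figure D1:**
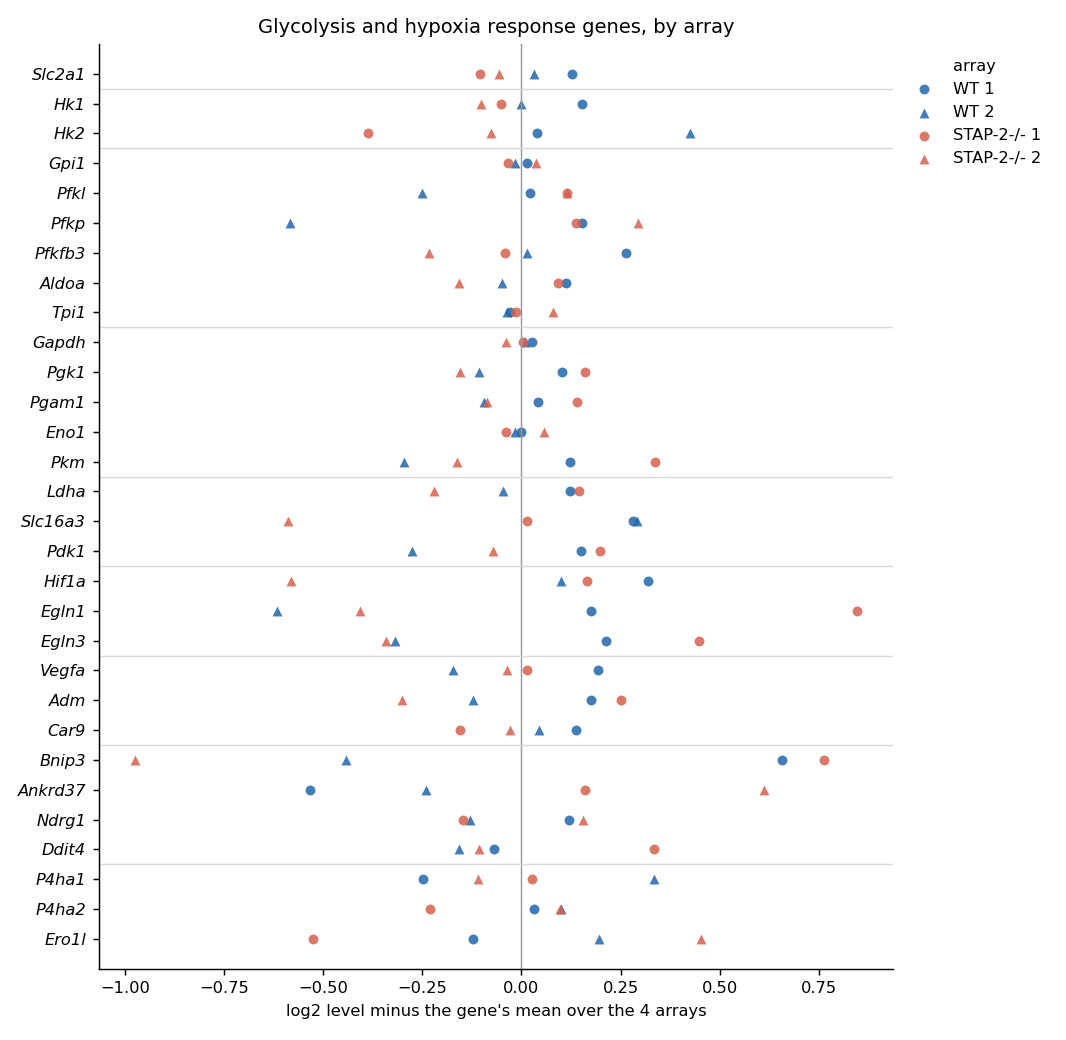
Log2 level of each of the 30 members on each of the 4 arrays, minus the gene's mean over the arrays; blue marks WT and red STAP-2-/-, circles pool number 1 and triangles pool number 2, and grey lines separate the roles. Both red symbols lie right of both blue symbols for Ankrd37, while both circles lie right of both triangles for Bnip3, Egln1 and Egln3.

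Ankrd37, an ankyrin repeat protein known as a HIF target, had the largest genotype difference of the members. It stood at -0.12 and 0.17 in the WT pools and at 0.57 and 1.03 in the STAP-2-/- pools. All STAP-2-/- values were higher, and the means differed by 0.77 (SE 0.23, 1.71-fold, n = 2 pools per genotype), with an unadjusted p of 0.0292 and a limma adjusted p of 1.0. The difference was 1.62-fold between the pools numbered 1 and 1.81-fold between those numbered 2.

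Slc16a3, the MCT4 transporter that exports lactate, was measured at 0.32 and 0.33 in WT pools and at 0.057 and -0.55 in STAP-2-/- pools. The groups did not overlap, yet the STAP-2-/- pools lay 0.60 apart. The difference of the means was -0.57 (SE 0.25; limma adjusted p = 1.0), and a further Slc16a3 probe gave -0.55. Slc16a3 in the pools numbered 2 was 1.84-fold lower in STAP-2-/-, against 1.20-fold in those numbered 1.

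Glucose entry is the step of Slc2a1, the transporter GLUT1, and of the hexokinases, which trap glucose as glucose 6-phosphate. Hk2, the inducible hexokinase, stood at 2.45 and 2.84 in WT and at 2.02 and 2.33 in STAP-2-/- pools. Both STAP-2-/- values were lower, with a difference of -0.46 (SE 0.22; limma adjusted p = 1.0). Slc2a1 lay in a narrow band, at 3.22 and 3.12 in WT and 2.99 and 3.03 in STAP-2-/- pools, a difference of -0.16 (SE 0.13). Hk1, the hexokinase of most tissues, differed by -0.15. None of these 3 genes passed the test.

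The enzymes from glucose 6-phosphate to triose phosphate gave differences of both signs. Pfkp, the platelet form of phosphofructokinase, stood at 1.70 and 0.96 in WT and at 1.68 and 1.84 in STAP-2-/- pools. The WT 1 value lay between those of the STAP-2-/- pools, and the mean difference of 0.43 (SE 0.30) rests on the low value of WT 2. Pfkl, the liver form, was at 0.74 and 0.46 in WT and at 0.83 in both STAP-2-/- pools, a difference of 0.23. Pfkfb3, which makes the activator of phosphofructokinase, differed by -0.28 (SE 0.17). The mean over its probes gave a value above 0, but takes in a probe that was well above background on 0 arrays. Gpi1, Aldoa and Tpi1, the isomerases and aldolase of this stretch, differed by 0.0017, -0.064 and 0.066. The sign of Gpi1 depended on the scaling.

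From glyceraldehyde 3-phosphate to pyruvate the genotypes lay close together. The differences of Gapdh, Pgk1, Pgam1 and Eno1, which carry out the steps to phosphoenolpyruvate, ran from -0.034 to 0.054, that of Pgk1 turning sign in the authors' value table and with normexp. Pkm, pyruvate kinase, differed by 0.18, Ldha, lactate dehydrogenase A, by -0.077, and Pdk1, the kinase that restrains pyruvate dehydrogenase, by 0.13. Gapdh, often used as a reference transcript, was at 7.09 and 7.07 in WT and at 7.06 and 7.02 in STAP-2-/- pools.

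Among the oxygen sensors, the HIF subunit and the hydroxylases differed in sign. Hif1a was at 1.35 and 1.13 in WT and at 1.19 and 0.45 in STAP-2-/- pools. STAP-2-/- 1 lay between the WT pools, and the difference of -0.42 (SE 0.31) came with a low value on STAP-2-/- 2. Egln1, the main HIF prolyl hydroxylase, was at -3.16 and -3.96 in WT and at -2.49 and -3.75 in STAP-2-/- pools. Its genotypes overlapped, and the difference of 0.44 (SE 0.55) was smaller than its error. Egln3, a hydroxylase that is itself a HIF target, differed by 0.11.

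The remaining HIF targets differed little or overlapped. Vegfa, the vascular growth factor, differed by -0.022, and Adm, the vasodilator peptide adrenomedullin, by -0.052. Car9, the membrane carbonic anhydrase that acidifies the cell surroundings, was at 2.89 and 2.80 in WT and at 2.60 and 2.73 in STAP-2-/- pools, a difference of -0.18. Bnip3, a mitochondrial protein of mitophagy, differed by -0.21 (SE 0.75), and Ddit4, an inhibitor of mTORC1, by 0.23. P4ha1 and P4ha2, the collagen prolyl hydroxylase subunits, differed by -0.085 and -0.13. Ero1l, the oxidase of disulfide formation in the endoplasmic reticulum, differed by -0.074. Ndrg1, a stress response protein, differed by 0.0076, with its sign turned in the authors' value table.

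**Figure D2:**
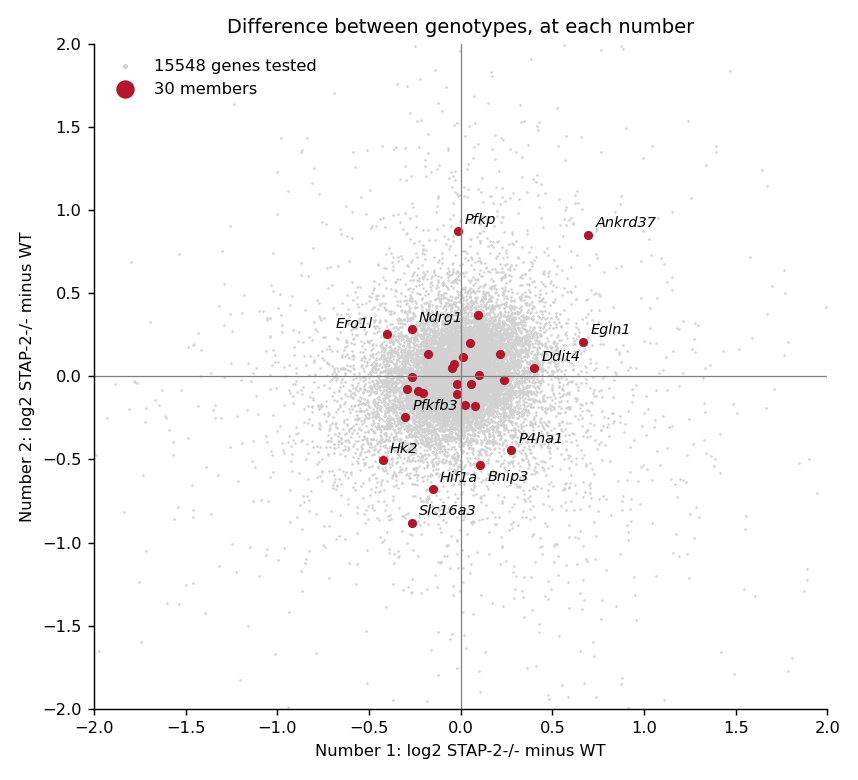
STAP-2-/- minus WT difference on the log2 scale in the pools numbered 1 (x axis) against that in the pools numbered 2 (y axis), members in colour and all genes tested in grey; axes end at 2 in each direction, which leaves out 139 genes and 0 members. Ankrd37 lies in the corner where both differences are above 0, and Slc16a3 and Hk2 lie where both are below 0.

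The genotype difference had the same sign at both pool numbers for 18 of 30 members, 10 lower and 8 higher, beside 56.0% of all genes tested. Leaving out an array moved the median of the members from -0.028 to between -0.098 (without WT 2) and 0.049 (without WT 1), with -0.097 after STAP-2-/- 1 was left out and 0.011 after STAP-2-/- 2. With the mean over the probes of a gene in place of the brightest probe it was 0.0071.

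Pools were then compared by their number in the labels. The limma fit for pool number had no genotype term. Its SEs and p-values thus measure the spread between the WT and the STAP-2-/- pool of a number. The pools numbered 2 held less Bnip3, Egln1 and Egln3 transcript than those numbered 1, by 2.67-fold, 2.03-fold and 1.58-fold, and more Ero1l transcript, by 1.57-fold. None of these differences passed the adjusted threshold: limma with the 2 pools of a number as a group called 0 of 30 members and 0 genes of the array (0%) at an adjusted p of 0.05. At an unadjusted p below 0.05 stood 7 of 30 members, beside 3940 genes, 25.3% of those tested, so the share of members lies near that of the array. The 7 members were Bnip3, Egln3, Egln1, Adm, Pkm, Ero1l and Pdk1. The lowest adjusted p of a member was 0.0932 and that of any gene 0.0873.

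The median number 2 minus number 1 difference of the members was -0.19 on the log2 scale, beside -0.041 over all genes tested, and 20 of 30 members were lower in the pools numbered 2. Pools of different number did not overlap for 15 of 30 members, and for 62.4% of all genes. Both pools numbered 2 were lower in 13 members, beside 36.0% of all genes, and higher in 2 members, P4ha2 and Ero1l, beside 26.4% of all genes. This split of 2 higher and 13 lower members was 6 and 12 with quantile scaling, 5 and 10 with median scaling, 5 and 13 with the 75th percentile over detected probes, and 6 and 12 with normexp. Within each genotype the difference had the same sign for 20 of 30 members, 16 of them lower in both, beside 77.3% of all genes, with 44.1% lower in both.

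The median moved to -0.10 with quantile scaling, -0.13 with median scaling and -0.093 with normexp, while the median over all genes moved from -0.041 to 0.013, 0.024 and 0.012. The median of the members was thus below the median of all genes in each of these 3 scalings. Leaving out any 1 array gave medians from -0.17 to -0.13.

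Bnip3 showed the largest difference between pools. It stood at 2.75 in WT 1 and 2.86 in STAP-2-/- 1, and at 1.65 in WT 2 and 1.12 in STAP-2-/- 2. The pools numbered 1 lay 0.11 apart and both were above the pools numbered 2. The difference was -1.42 (SE 0.21, n = 2 pools per number, limma adjusted p = 0.0932), and the adjusted p ranged from 0.0625 to 0.364 over the alternatives. Bnip3 was 2.14-fold lower in WT 2 than in WT 1 and 3.33-fold lower in STAP-2-/- 2 than in STAP-2-/- 1.

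Egln1 stood at -3.16 in WT 1 and -2.49 in STAP-2-/- 1, and at -3.96 in WT 2 and -3.75 in STAP-2-/- 2. Both pools numbered 2 were lower, by 1.02 on average (SE 0.26, limma adjusted p = 0.137). Egln3 stood at 0.89 and 1.12 in the pools numbered 1 and at 0.36 and 0.33 in those numbered 2. The Egln3 difference was -0.66 (SE 0.13, limma adjusted p = 0.114), and a further Egln3 probe gave -0.68. Hif1a was at 1.35 and 1.19 in the pools numbered 1 and at 1.13 and 0.45 in those numbered 2. All 3 oxygen-sensing members were thus lower in both pools numbered 2, although the Hif1a difference of -0.48 had an SE of 0.26.

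Ero1l went the other way. Its levels were -1.37 in WT 1 and -1.77 in STAP-2-/- 1, and -1.05 in WT 2 and -0.80 in STAP-2-/- 2. Both pools numbered 2 were higher, with a difference of 0.65 (SE 0.19, limma adjusted p = 0.154). P4ha2, which like Ero1l acts in the secretory pathway, differed by 0.20, at -0.82 and -1.09 in the pools numbered 1 and -0.75 and -0.76 in those numbered 2. P4ha1 differed by 0.22 with overlapping pools, and a further P4ha1 probe gave -0.077.

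**Figure D3:**
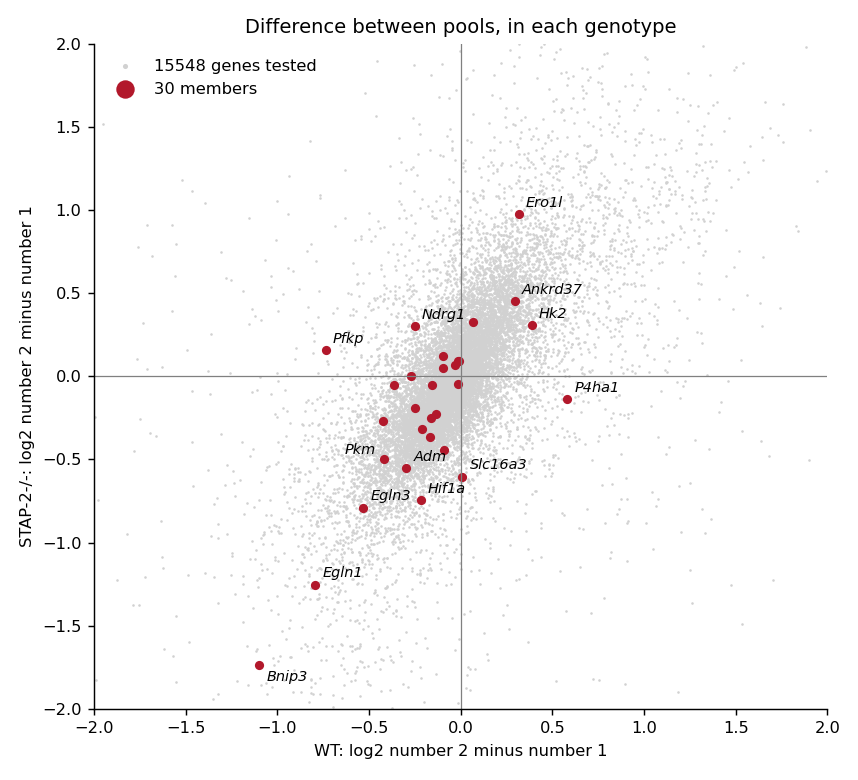
Number 2 minus number 1 difference on the log2 scale within WT (x axis) and within STAP-2-/- (y axis), members in colour and all genes tested in grey; axes end at 2 in each direction, which leaves out 280 genes and 0 members. Bnip3, Egln1 and Egln3 lie where both differences are below 0, and Ero1l lies where both are above 0.

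Among the glycolytic enzymes of the 30 members, Pkm had the largest difference between pool numbers. It was at 4.07 and 4.29 in the pools numbered 1 and at 3.66 and 3.79 in those numbered 2. The pools did not overlap, and the difference was -0.46 (SE 0.13, limma adjusted p = 0.149). Pgk1, Pgam1 and Pkm of lower glycolysis, Aldoa of upper glycolysis, and Ldha and Pdk1 of pyruvate handling were all lower in both pools numbered 2. Their differences ran from -0.46 for Pkm to -0.18 for Pgam1. Ldha stood at 6.86 and 6.88 in the pools numbered 1 and at 6.69 and 6.51 in those numbered 2. Pdk1 stood at 0.029 and 0.079 in the pools numbered 1 and at -0.40 and -0.19 in those numbered 2, a difference of -0.35 (SE 0.12).

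Other enzymes of the same pathway lay closer together with the probes used. Gpi1, Tpi1 and Eno1 differed by 0.020, 0.042 and 0.040, although a further Tpi1 probe gave -0.25. Gapdh differed by -0.030, a sign that turned under quantile, median and normexp scaling. Hk1 differed by -0.10, a sign that turned under normexp, and Slc2a1 by -0.025 with a sign that depended on scaling. Hk2 was higher in the pools numbered 2 in each genotype, by 0.35, with overlapping values. Pfkl, Pfkp and Pfkfb3 differed by -0.14, -0.29 and -0.22, each with overlapping pools. Slc16a3 differed by -0.30, with hardly any gap between the WT pools and 0.60 between the STAP-2-/- pools. Over the 17 members of glucose and lactate handling the median was -0.18, with 13 lower, and over the 13 oxygen-linked members it was -0.21, with 7 lower.

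Of the HIF targets outside glycolysis, Adm, Vegfa and Ddit4 were lower in both pools numbered 2. Adm was at -1.32 and -1.24 in the pools numbered 1 and at -1.61 and -1.79 in those numbered 2, a difference of -0.43 (SE 0.12). Vegfa and Ddit4 differed by -0.21 and -0.27, the latter at 3.70 and 4.10 against 3.61 and 3.66. Car9 and Ndrg1 lay level, at differences of 0.016 and 0.025. Ankrd37 was higher in the pools numbered 2 of each genotype, by 0.37 on average, with overlapping values. HIF targets thus differed in both directions between the pools.

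Arrays were also compared in pairs, sharing either a pool number or a genotype. The SD of the 30 member differences was 0.276 between WT 1 and STAP-2-/- 1 and 0.374 between WT 2 and STAP-2-/- 2. It was 0.344 between the WT pools and 0.520 between the STAP-2-/- pools. The STAP-2-/- pools thus differed more from each other than either pair of equal number, while the WT pools differed less than WT 2 and STAP-2-/- 2. Over all genes tested the corresponding SDs were 0.376, 0.415, 0.420 and 0.655.

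Several probes were available for 12 members, 50 member probes in all, and the probes of 11 members could be compared. Of these, 7 members had probes of the same sign between pool numbers and 7 had probes of the same sign between genotypes. Bnip3 was lower in the pools numbered 2 with each of its 3 probes, by -1.42 to -0.76. The 3 Ldha probes gave -0.91 to -0.27 and the Vegfa probes -0.62 and -0.21, so the brightest probe, used here, gave the smallest size for both genes. The Hk1 probes gave -0.55 and -0.10. Gapdh had 7 probes, with pool number differences from -0.15 to 0.089 and genotype differences from -0.054 to 0.15. Probe sequences were not used here, so signal from near-identical copies of Gapdh or other enzyme genes could not be separated from that of the gene itself.

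**Figure D4:**
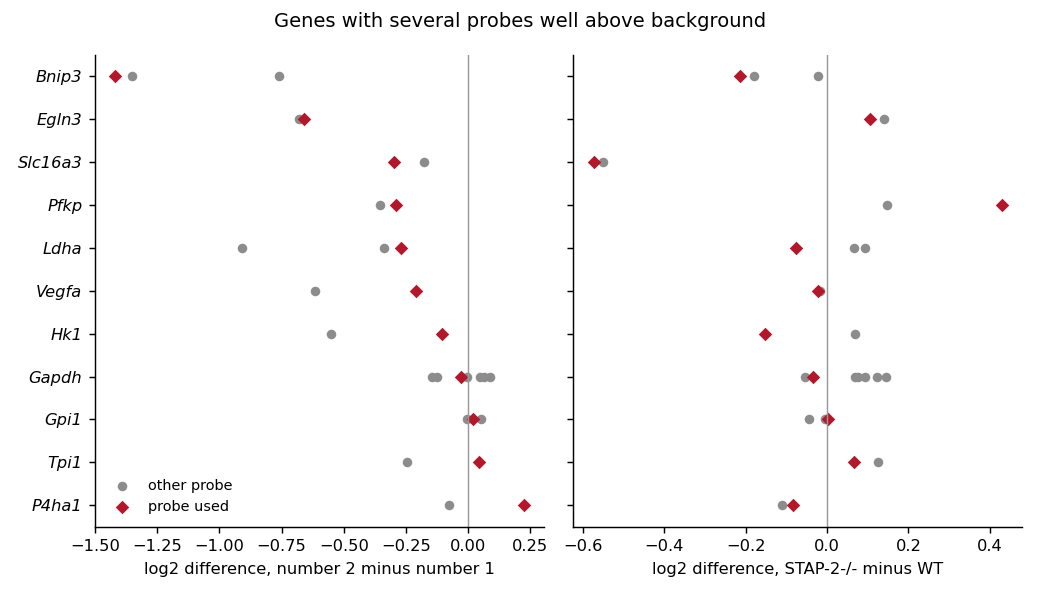
Log2 difference (x axes) between pool numbers (left, number 2 minus number 1) and between genotypes (right, STAP-2-/- minus WT) for each probe of the 11 members compared (y axis), with a red diamond for the brightest probe, which stands for the gene, and grey circles for the others. On the left the Bnip3 and Egln3 probes all lie below 0, and the Gapdh probes lie on both sides of 0.

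HIF binds DNA at a short core sequence, and the 250 bases upstream of the RefSeq start sites of the members (assembly GRCm38.p6) were searched for it. The letters searched were ACGTG and GCGTG on both strands; where CACGTG occurs, ACGTG is counted on each strand. A match was found upstream of 27 of 29 members with an entry (93.1%), and of 56.6% of 12312 tested genes with an entry. ACGTG alone was found for 20 of 29 members and for 23.3% of tested genes. Gpi1 and Tpi1 had no match. Per window, since a gene can have several starts, 32 of 39 member windows (82.1%) held a match, beside 51.4% of the windows of tested genes and 38.6% of all 32851 windows. The member windows also had more G and C, with a median of 64.0% beside 58.8%, and the motif letters are rich in both. The members were chosen as glycolytic genes and known HIF targets, so this share describes the choice.

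Windows are shown for the members with the largest differences in each direction: Bnip3 and Egln1 among those lower in the pools numbered 2, Ero1l among those higher there, and Ankrd37, with the largest genotype difference. Egln3, next after Egln1, had 1 match. All 4 lie on the minus strand and are written 5′ to 3′ with matches in capitals. They span chr7:138909507-138909756 for Bnip3, chr8:124949255-124949504 for Egln1, chr14:45318573-45318822 for Ero1l and chr8:45999851-46000100 for Ankrd37.
Bnip3: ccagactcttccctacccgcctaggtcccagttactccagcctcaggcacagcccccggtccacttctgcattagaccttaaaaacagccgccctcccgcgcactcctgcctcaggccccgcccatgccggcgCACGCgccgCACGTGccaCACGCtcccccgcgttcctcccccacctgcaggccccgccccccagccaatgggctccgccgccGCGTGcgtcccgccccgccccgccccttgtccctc
Egln1: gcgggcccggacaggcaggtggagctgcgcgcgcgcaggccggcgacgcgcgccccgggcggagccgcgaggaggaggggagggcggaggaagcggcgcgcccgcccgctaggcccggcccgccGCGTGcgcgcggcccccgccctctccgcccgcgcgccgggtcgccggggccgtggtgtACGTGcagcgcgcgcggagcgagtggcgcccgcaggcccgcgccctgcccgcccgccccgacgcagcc
Ero1l: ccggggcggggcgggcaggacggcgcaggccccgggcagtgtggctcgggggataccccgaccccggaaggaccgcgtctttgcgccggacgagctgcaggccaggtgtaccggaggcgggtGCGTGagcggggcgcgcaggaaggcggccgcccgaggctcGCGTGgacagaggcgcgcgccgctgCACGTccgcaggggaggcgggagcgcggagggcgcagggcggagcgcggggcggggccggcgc
Ankrd37: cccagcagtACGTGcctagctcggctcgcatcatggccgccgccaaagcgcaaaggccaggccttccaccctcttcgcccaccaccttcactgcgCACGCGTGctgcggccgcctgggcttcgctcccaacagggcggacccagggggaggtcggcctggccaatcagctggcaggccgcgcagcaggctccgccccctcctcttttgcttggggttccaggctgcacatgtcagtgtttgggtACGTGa
The windows hold 5 matches for Bnip3, 2 for Egln1, 3 for Ero1l and 4 for Ankrd37. Those of Bnip3 lie within 117 bases of the start, in a window of 72.4% G and C. Matches were thus present both in the genes lower and in the gene higher in the pools numbered 2. A match is a run of letters and no measurement of binding.

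Other genes of these pathways were read from fixed lists. Of 29 other glycolysis genes tested, 0 passed the adjusted threshold in either comparison, 15 were lower in STAP-2-/- and 16 were lower in the pools numbered 2. At an unadjusted limma p below 0.05 stood 0 for genotype and 9 for pool number, beside 2.09% and 25.3% of all genes. Eno3, the muscle enolase, was at 3.53 and 4.81 in the pools numbered 1 and at 2.44 and 1.47 in those numbered 2. It was 4.65-fold lower there (log2 difference -2.22, SE 0.55, limma adjusted p = 0.136). Pdk4, the pyruvate dehydrogenase kinase of fasting, was at -1.70 and -1.78 in the pools numbered 1 and at -0.41 and -0.50 in those numbered 2, a difference of 1.28 (SE 0.11, limma adjusted p = 0.0873). Aldoc, the brain aldolase, was at 2.72 and 2.83 in the pools numbered 1 and at 2.17 and 1.86 in those numbered 2, a difference of -0.76.

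The largest genotype differences of these glycolysis genes were smaller. Slc16a7, a monocarboxylate transporter, was at -1.72 and -1.42 in WT and at -2.28 and -1.93 in STAP-2-/- pools, a difference of -0.54. Hk3, a further hexokinase, was at -4.71 and -4.54 in WT and at -4.49 and -3.96 in STAP-2-/- pools, a difference of 0.40, opposite in sign to Hk1 and Hk2. The gluconeogenic Fbp1 was at -1.79 and -1.45 in WT and at -1.48 and -0.97 in STAP-2-/- pools, also a difference of 0.40.

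Of 40 other hypoxia genes tested, of 41 listed, 0 passed in either comparison. In STAP-2-/- colons 28 were lower, with a median of -0.057, and in the pools numbered 2 there were 15 lower, with a median of 0.13. At an unadjusted limma p below 0.05 stood 0 for genotype and 7 for pool number, beside 2.09% and 25.3% of all genes. Ak4, an adenylate kinase, was at 1.78 and 1.54 in WT and at 0.054 and 1.27 in STAP-2-/- pools, a difference of -1.0 (SE 0.46). Ang, angiogenin, differed by -1.0 as well, at 2.18 and 1.37 in WT and at 0.38 and 1.17 in STAP-2-/- pools. For both genes STAP-2-/- 1 was the lowest array.

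Lox, lysyl oxidase, was at -5.99 and -6.91 in the pools numbered 1, WT first, and at -4.81 and -5.32 in those numbered 2. It differed by 1.38 between pool numbers and by -0.72 between genotypes. Arnt2, a HIF partner, was at -6.00 and -6.51 in the pools numbered 1 and at -5.23 and -4.79 in those numbered 2, a difference of 1.25. Lox and Arnt2 were each well above background on 3 of 4 arrays. Car12, a carbonic anhydrase, was at 2.95 and 2.03 in the pools numbered 1 and at 3.16 and 3.44 in those numbered 2, a difference of 0.81. For pool number the median of the other hypoxia genes thus lay on the other side of 0 from that of the members, and for genotype both lay below 0. Yet these genes went both ways: without overlap, 11 of 40 were lower and 12 higher in the pools numbered 2, beside 36.0% and 26.4% of all genes.

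**Figure D5:**
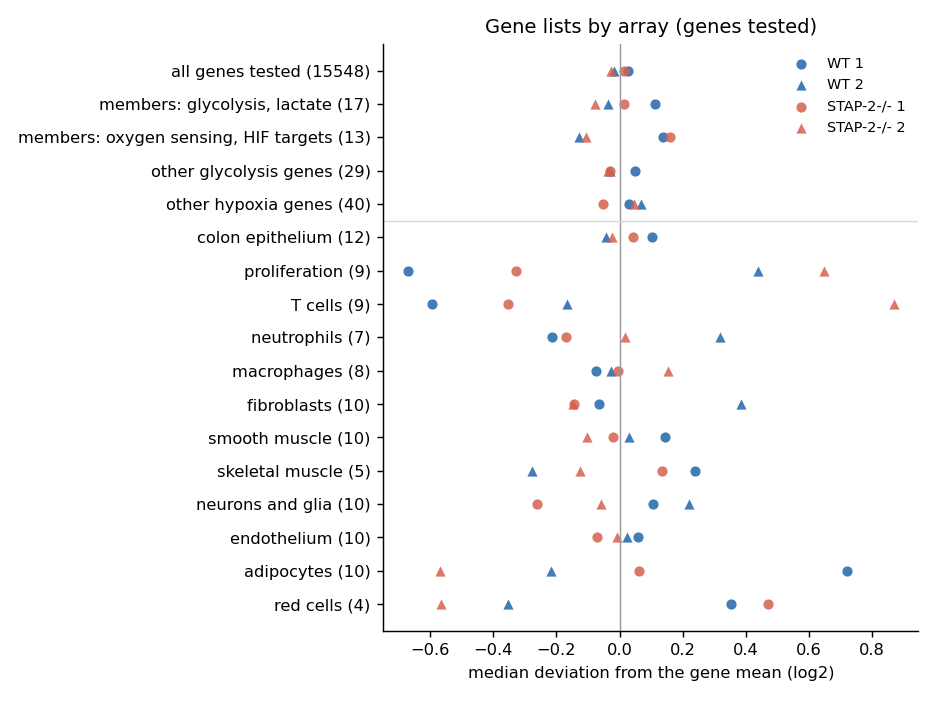
Median over each list of the log2 level minus the gene's mean over the 4 arrays (x axis), with the number of genes tested beside the list name; blue marks WT and red STAP-2-/-, circles pool number 1 and triangles pool number 2. Both circles lie right of both triangles for all genes tested, by little, and for both sets of members. The same holds for colon epithelium, skeletal muscle, adipocytes and red cells. They lie left for other hypoxia genes, proliferation, T cells and neutrophils.

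Markers of several cell types differed with pool number beside the members, and their part in the member differences was not tested. Of all genes, 26.4% were higher and 36.0% lower in both pools numbered 2. All 9 proliferation markers tested were higher in both, with a median difference of 1.0. Of 10 adipocyte markers 9 were lower, with a median of -0.83. Levels were also summed over a list on the linear scale, out of log2, so the brightest genes weigh most. The adipocyte sums were 111 and 70.7 in the pools numbered 1 and 73.7 and 56.3 in those numbered 2. The 4 red cell markers tested had a median of -0.73. Of 5 skeletal muscle markers tested, of 10 listed, 4 were lower in both pools numbered 2, with a median of -0.48 over the 5. Myh2, a muscle myosin, differed by -2.86, and Acta1 by 0.021. The other listed muscle markers did not pass the filter on dim probes. T cell markers had a median of 0.66, with 1 of 9 lower. Of 7 neutrophil markers 3 were higher and 2 lower in both pools numbered 2, with a median of 0.35. The calprotectin genes S100a8 and S100a9 were higher by 2.67 (SE 0.74) and 3.76 (SE 0.80). For both genes WT 2 was the highest array, at -1.11 and 1.02, against -3.29 and -1.30 on STAP-2-/- 2. Markers of neighbouring organs differed in both directions. Of 6 liver markers 5 were lower, 4 of them without overlap, beside 36.0% of all genes, with a median of -1.18 over the 6. Tat, the remaining liver marker, was higher by 0.51 with overlapping pools. Of 3 small intestine markers tested, of 6 listed, 0 were lower, with a median of 0.37. Of 2 stomach markers tested, of 6 listed, 2 were lower, with a median of -0.60. Both pancreas markers tested were lower, with a median of -1.51 over the 2. Cela1 differed by -2.32, at 3.15 and 3.88 in the pools numbered 1. Amy2a5 differed by -0.70, at -3.35 and -4.25 in those pools. Whether the Cela1 signal came from pancreas was not tested. The other pancreas markers of the 6 listed did not pass the filter on dim probes. The linear sum of the liver markers was 9.77 and 10.03 in the pools numbered 1 and 5.25 and 4.04 in those numbered 2. Colon epithelium markers had a median of -0.11, with 8 of 12 lower.

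With genotype, T cell markers were higher, with a median of 0.74 over 9 tested and 0 lower. That median was 0.35 between the pools numbered 1 and 1.35 between those numbered 2. The linear sums of the T cell markers were 2.74 and 3.03 in WT and 3.24 and 4.92 in STAP-2-/- pools. All 10 fibroblast markers and all 10 markers of neurons and glia were lower in STAP-2-/- means, with medians of -0.32 and -0.39. So were all 10 smooth muscle markers, with a median of -0.11, and 7 of 10 endothelium markers, with a median of -0.088. The fibroblast median was -0.036 between the pools numbered 1 and -0.61 between those numbered 2. Adipocyte markers had a median of -0.46 with 8 of 10 lower, and neutrophil markers -0.51 with 5 of 7 lower. Between the pools numbered 1 these medians were -0.69 and -0.035, and between those numbered 2 they were -0.28 and -0.66. Whether these shifts bear on Ankrd37, Slc16a3 or Hk2 was not tested.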

How the data were processed

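Agilent Feature Extraction 10.7.1.1 (per the submitters' processing notes) gave the deposited scanner intensity of every spot, with background already subtracted per the file headers. In the value table the authors deposited, each entry is a ratio: dividing the processed signal of an array by a single constant gives it; its column medians were 0.085 to 0.091. It is linear and not centred by gene, and served as an alternative.

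Control spots were left out, outlier-flagged spots set missing and spots of a probe averaged; values are log2 of the processed signal minus the array's 75th percentile. Over 399 probes spotted 5 times or more, the median SD between spots was 0.047 to 0.051, and the number of arrays, 4, limits the precision. Of 39429 probes, 27421 were named by unversioned accession through a RefSeq table of GRCm38.p6. The file headers give mm9, so the coordinates printed are those of the RefSeq promoter table alone. Tests covered genes whose probe stood well above background on both arrays of WT, of STAP-2-/- or of both.

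limma 3.58.1 (lmFit, eBayes) in R 4.3.3 compared genotypes and, separately, pool numbers, without covariates, with Benjamini-Hochberg adjustment over 15548 genes. The fit was run on simulated data, with arrays drawn independently of each other. Only the mean error and the sign of large changes were checked, and not how many changes were called. Python 3.11.15 read and drew the data. Members are all accounted for, and array values are given for at least the 6 members with the largest difference in each comparison and for 3 genes per further list and comparison. The members and lists were chosen with earlier results of these data known. Alternatives were other scalings, filters, probe rules and fits, a replicate block, and leaving out each array.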

Additional observations from a re-analysis of the deposited data

Results flagged for a closer look

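Among the members, 12 had genotype differences of opposite sign at the 2 pool numbers, and 3 of them had a size of at least 0.25 in both directions, a minimum chosen after seeing the data. These differences were not tested, since each is taken between single arrays. Ndrg1 was lower in STAP-2-/- 1 than in WT 1 by 0.27 on the log2 scale and higher in STAP-2-/- 2 than in WT 2 by 0.28, and these differ by 0.55. P4ha1 was higher in STAP-2-/- 1 by 0.27 and lower in STAP-2-/- 2 by 0.44, a change of -0.72. Ero1l was lower in STAP-2-/- 1 by 0.40 and higher in STAP-2-/- 2 by 0.26, a change of 0.66.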

How the results depend on the processing

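The members' median genotype difference, -0.028, was -0.0077 with quantile scaling, -0.033 with the 75th percentile over detected probes, -0.036 in the authors' value table, -0.022 with normexp (offset 50, on the median spot signal, added after seeing the data), 0.0071 with the mean over probes, and -0.098 to 0.049 leaving out an array. Their median pool number difference, -0.19, was -0.10 with quantile scaling, -0.13 with median scaling, -0.093 with normexp, and -0.17 to -0.13 leaving out an array. Members without overlap numbered 14 to 25 of 30 (genotype) and 21 to 26 (pool number) leaving out an array, where 1 array stands for a group, beside 48.2% to 76.6% and 77.1% to 82.8% of all genes.

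Genes passing the adjusted threshold stayed at 0, except that normexp called 1 gene for genotype, Stap2 (limma adjusted p = 0.00459). No member passed it under any alternative run. Outside leave-outs, member differences changed sign in 11 of 330 values for genotype and 8 of 330 for pool number; leaving out an array, in 30 and 13 of 120. Members with an unadjusted p below 0.05 for pool number numbered 11 with the mean over probes and 10 with an intensity trend and robust fit, beside 25.9% and 26.5% of all genes, in place of 7; the causes were not tested.

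With the replicate block, 0 genes were called for genotype and 1040 had an unadjusted p below 0.05, in place of 325; 2 members did, in place of 1. With genotype as a term, the lowest adjusted p for pool number was 0.161. Arrays of equal number deviated from their genotype means together (correlation 0.596 over 15548 genes), a hint from the data; the labels give no more than a shared number. The number of arrays, 2 per group, limits what can be detected.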
